A study of Mus musculus with 2 samples.

Results

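Transcripts of 36 genes for protein folding in the endoplasmic reticulum (ER) and for the unfolded protein response were followed through the cell types of mouse pancreatic islets. The members were chosen by gene symbol, as known components of the pathway, and all 36 were found among the 28692 genes of the count tables. The study concerns BAF60C, a chromatin-remodelling subunit encoded by Smarcd3, in type 2 diabetes. Islets of BcBKO mice, named in the series as carrying an ablation specific to beta cells and linked there to Pdx1-cre, were set against islets of flox/flox mice. The Pdx1 promoter that drives this Cre is active in the early pancreas as well as in mature beta cells, so the recombinase is not confined to beta cells during development. A single library was made per group, by droplet capture and 3′ tag counting, from islets that were dispersed with a trypsin substitute after pooling at least 3 mice. The age and strain of the mice, and whether the flox/flox mice carried Cre, are not given in the sources used here.

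With 1 library per group there is no replicate, so no difference between the libraries was tested. The values below are therefore descriptions of these libraries, and every interval is a 95% interval for counting error only. In all, 10775 barcodes with 178647270 UMIs (unique molecular identifiers, which count RNA molecules) were deposited for the library labelled BcBKO, and 9438 barcodes with 167670996 UMIs for flox/flox. Smarcd3, the gene named in the title, went against the label: beta cells held 71 UMIs of it (0.610 CPM, counts per 1000000 UMIs) in the library labelled BcBKO and 45 (0.374 CPM) in flox/flox, a ratio of 1.63 (1.11 to 2.42). The floxed exons are not given in the sources used here, and reads at the 3′ end check a deletion only where it covers that end. BcBKO below stands for the library that carries this label. The libraries shared 23 barcode sequences, 14 of them after filtering.

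Barcodes were sorted into 6 classes by their hormone and marker UMIs. Beta cells were barcodes with at least 25% of UMIs from Ins1 and Ins2 and at least 10000 UMIs, with under 1% from each of Gcg, Sst and Ppy. They numbered 3058 in the library labelled BcBKO and 2750 in flox/flox, with medians of 33171.5 (BcBKO) and 38461.5 (flox/flox) UMIs per cell. The other classes had insulin under 15% of UMIs. Alpha cells numbered 714 (BcBKO) and 415 (flox/flox), delta cells 371 (BcBKO) and 281 (flox/flox), endothelial cells 1516 (BcBKO) and 1763 (flox/flox), mural cells 665 (BcBKO) and 794 (flox/flox), and macrophages 367 (BcBKO) and 463 (flox/flox). Of the mural barcodes, 498 of 665 in BcBKO and 569 of 794 in flox/flox also met the rule for endothelial cells, so those classes share many barcodes. The delta and macrophage classes held barcodes with glucagon RNA. Gcg had 49191 (BcBKO) and 40548 (flox/flox) CPM in delta cells, and 30060 (BcBKO) and 18514 (flox/flox) CPM in macrophages. In barcodes of 1 class only it had 4733.5 and 3604.5 CPM in delta cells, and 1661 and 1178 CPM in macrophages.

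Proteins that are secreted enter the ER as unfolded chains, where chaperones, disulfide isomerases and sugar-reading lectins fold them. Chains that fail are sent back to the cytosol for degradation. When unfolded chains build up, the sensors IRE1, PERK and ATF6 start the unfolded protein response: IRE1 splices the messenger RNA of Xbp1 and so yields a factor that induces chaperone and degradation genes, ATF6 is cut to release another such factor, and PERK slows translation while favouring that of Atf4, whose targets include the stress factor CHOP. Beta cells carry a heavy load of this kind, since they make proinsulin, whose fold is held by disulfide bonds. The counts do not distinguish spliced from unspliced Xbp1, and they do not report how much Atf4 is translated.

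Known targets of ATF6 and XBP1 often carry an ER stress response element in their promoters. The letters CCAAT, 9 bases of any kind and CCACG, in this order, were searched on both strands of RefSeq promoter windows (GRCm38.p6, 250 bases before to 50 bases after the gene start), for which 33 of the 36 members had an entry. The element was present in 8 of 33 members (24.2%) and in 0.137% of the promoters of 27025 genes. Since the members were chosen as known components of the pathway, these shares are a description and not an independent test. The matching stretches, on the strand of the gene, are shown because the 8 genes code for the main chaperones and oxidoreductases described below. The fixed letters of the motif are in capitals, and in Creld2, Ero1lb and Calr they lie on the opposite strand and so appear as CGTGG and ATTGG.
Hspa5 (chr2:34772015-34772053, plus strand): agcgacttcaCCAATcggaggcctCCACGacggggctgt
Hsp90b1 (chr10:86705628-86705666, minus strand): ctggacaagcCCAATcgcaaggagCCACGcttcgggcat
Dnajc3 (chr14:118937817-118937855, plus strand): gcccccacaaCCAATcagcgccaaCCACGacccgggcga
Pdia6 (chr12:17266481-17266519, plus strand): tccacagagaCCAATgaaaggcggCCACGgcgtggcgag
Canx (chr11:50325790-50325828, minus strand): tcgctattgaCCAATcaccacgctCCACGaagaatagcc
Creld2 (chr15:88819510-88819548, plus strand): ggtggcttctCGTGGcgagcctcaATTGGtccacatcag
Ero1lb (chr13:12565672-12565710, plus strand): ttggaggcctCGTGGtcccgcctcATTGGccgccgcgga
Calr (chr8:84847065-84847103, minus strand): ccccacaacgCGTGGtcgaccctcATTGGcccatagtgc

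The motif began at position −65 from the gene start in Hspa5, −98 in Pdia6, −105 in Dnajc3, −126 in Creld2, −145 in Canx, −162 in Calr, −201 in Ero1lb and −212 in Hsp90b1, which had another match at −107. A shorter form of the element, with ATTGG, 1 base of any kind and CCACG, which shares its CCACG with the first, was present in Herpud1 and Dnajb11 (6.06% of members and 0.0444% of all genes). The ATF4 element TGATGNAA was present in Asns, Chac1, Herpud1 and Trib3 (12.1% of members and 4.51% of all genes). The XBP1-type letters TGACGTGG were in 0 of 33 member promoters and in 0.714% of all promoters. No match of one motif overlapped a match of another in these members. A match is a run of letters, not a site shown to be used.
Herpud1, shorter element (chr8:94386367-94386397, plus strand): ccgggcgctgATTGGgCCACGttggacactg
Chac1, ATF4 element on the opposite strand (chr2:119351039-119351066, plus strand): ttccctgccgTTgCATCActcctgccag
Asns, ATF4 element (chr6:7693215-7693242, minus strand): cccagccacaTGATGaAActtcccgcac

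**Figure D1:**
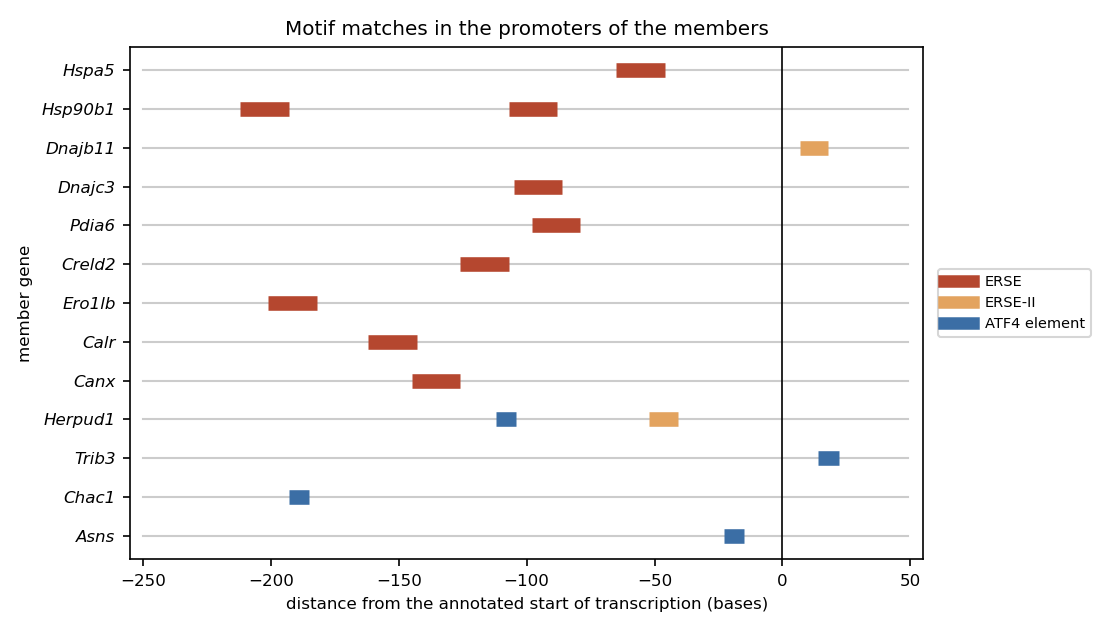
Place of each motif in the promoters of the 13 members that held one, in bases from the RefSeq gene start, with 1 row per member and 1 colour per motif. The ER stress response elements of the 8 members named above all lay before the start, and their first bases were between −212 and −65.

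Members were compared between classes in CPM, the UMIs of a gene summed over the cells of a class, divided by all UMIs of that class and multiplied by 1000000. One UMI stands for 1 tagged RNA molecule whatever its length, so levels were not divided by gene length. Insulin alone made up 62.0% of beta-cell UMIs in the library labelled BcBKO and 64.3% in flox/flox, and this lowers the CPM of every other gene in beta cells. Levels are therefore given also as hormone-free CPM, for which the UMIs of the hormone genes and the mitochondrial genes are left out of the total. On that scale the 36 members together took 2.53% of beta-cell UMIs in BcBKO and 2.44% in flox/flox. The corresponding shares were 1.08% (BcBKO) and 1.12% (flox/flox) in alpha cells, 1.20% (BcBKO) and 1.23% (flox/flox) in delta cells, 0.658% (BcBKO) and 0.659% (flox/flox) in endothelial cells, 0.625% (BcBKO) and 0.628% (flox/flox) in mural cells, and 0.910% (BcBKO) and 0.881% (flox/flox) in macrophages. A beta cell held on average 281 member UMIs in BcBKO and 296 in flox/flox, and an endothelial cell held 41.1 (BcBKO) and 47.5 (flox/flox). Differences between classes in the amount of RNA per cell and in its make-up cannot be told apart from these shares.

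**Figure D2:**
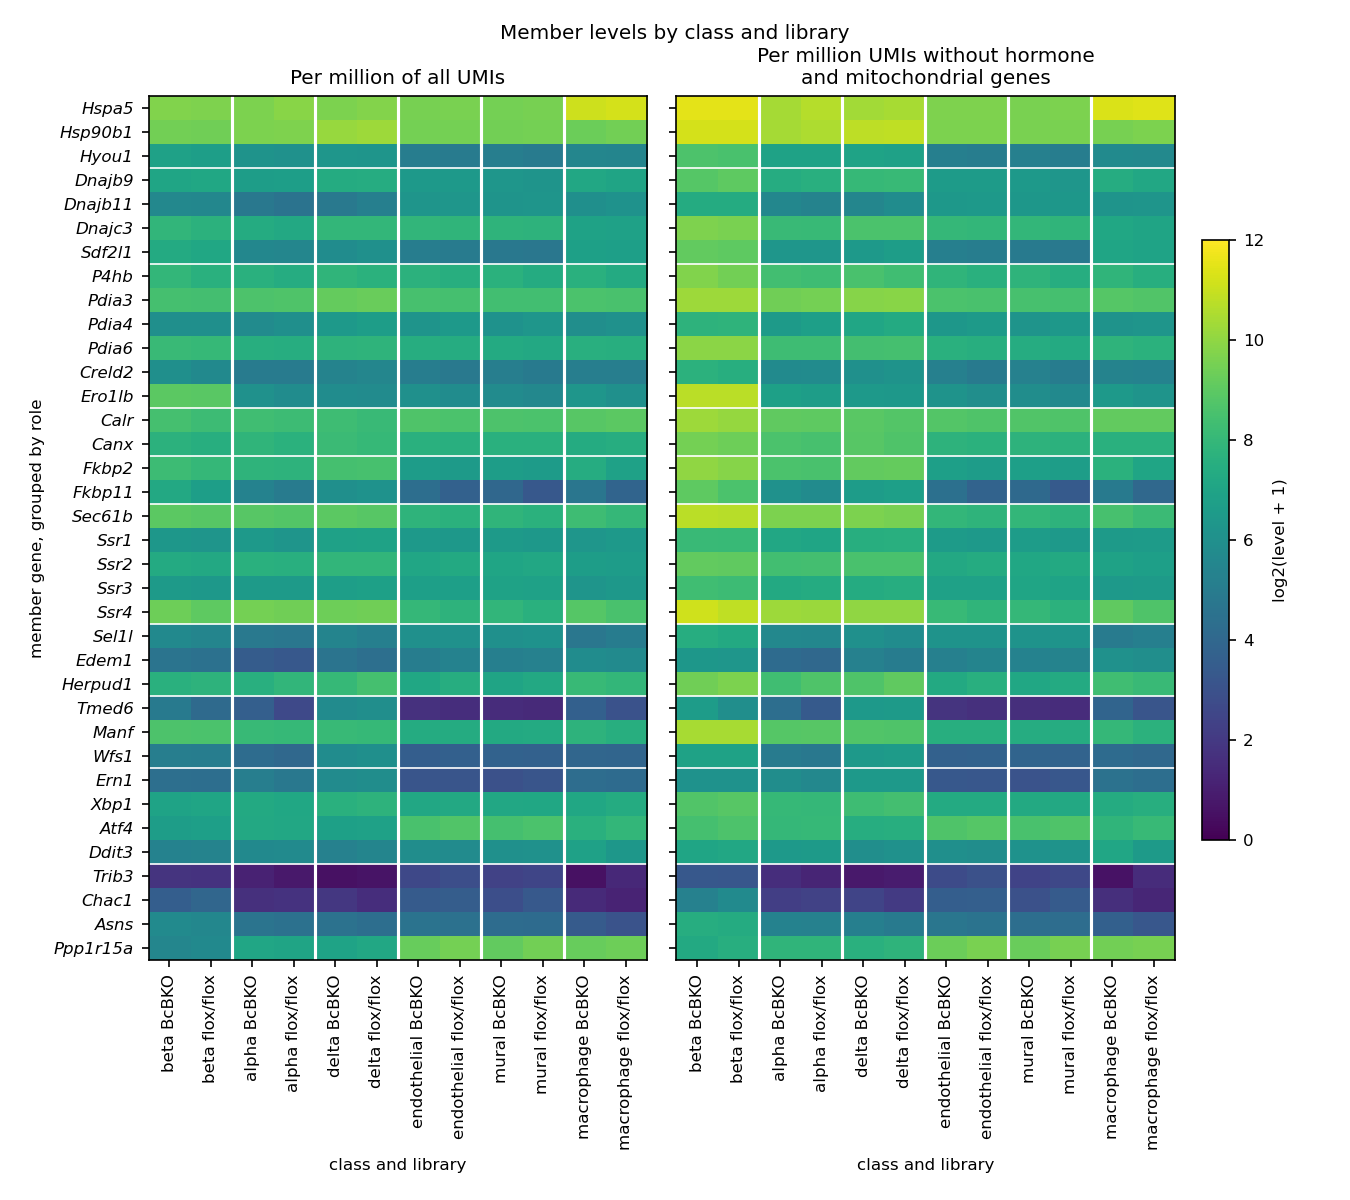
Level of each member, as log2 of CPM plus 1, in 6 classes of the library labelled BcBKO and the flox/flox library, ordered by role; all UMIs are the denominator at left, and UMIs without hormone and mitochondrial genes at right. On the right-hand scale beta cells were highest in both libraries for 30 of 35 members, and on the left-hand scale for 8 of 34.

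Among the lumenal chaperones, Hspa5 (BiP, the ER member of the Hsp70 family; ENSMUSG00000026864) was the most abundant member in beta cells, at 838 CPM in BcBKO and 806 CPM in flox/flox. On the CPM scale it was close to that level in alpha, delta, endothelial and mural cells (717 to 918 CPM) and highest in macrophages, at 2161 CPM in BcBKO and 2399 CPM in flox/flox. On the hormone-free scale beta cells had 2878 (BcBKO) and 2904 (flox/flox) CPM, macrophages 2541 (BcBKO) and 2689 (flox/flox), and endothelial cells 812 (BcBKO) and 818 (flox/flox). So the place of macrophages above beta cells for Hspa5 depended on whether insulin was counted in the total. Hsp90b1 (GRP94, the ER Hsp90) had 697 (BcBKO) and 668 (flox/flox) CPM in beta cells and 725 (BcBKO) and 728 (flox/flox) CPM in endothelial cells, but 2393 (BcBKO) and 2407 (flox/flox) against 795 (BcBKO) and 783 (flox/flox) on the hormone-free scale. Hyou1, a large relative of Hsp70 that exchanges the nucleotide of BiP, stood out more: 117 (BcBKO) and 104 (flox/flox) CPM in beta cells, against 32.6 (BcBKO) and 30.6 (flox/flox) CPM in endothelial cells.

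The J-domain proteins and their partners, which deliver clients to BiP, differed among themselves. Sdf2l1, a partner of the J-domain proteins (ENSMUSG00000022769), had 163 (BcBKO) and 142 (flox/flox) CPM in beta cells, against 46.7 (BcBKO) and 44.2 (flox/flox) CPM in alpha cells, 56.8 (BcBKO) and 64.2 (flox/flox) CPM in delta cells and 32.5 (BcBKO) and 31.1 (flox/flox) CPM in endothelial cells. Dnajc3 (p58IPK), whose loss is known to harm beta cells in mice and humans, had 239 (BcBKO) and 210 (flox/flox) CPM in beta cells and 235 (BcBKO) and 231 (flox/flox) CPM in endothelial cells. On the CPM scale Dnajb11 was lower in beta cells, at 47.7 (BcBKO) and 46.7 (flox/flox) CPM, than in endothelial cells, at 76.1 (BcBKO) and 79.2 (flox/flox) CPM. On the hormone-free scale it was higher in beta cells, by a log2 ratio of 0.97 (BcBKO) and 0.97 (flox/flox). Sdf2l1 was thus set apart from Dnajb11 in the same direction in both libraries. On the CPM scale its log2 ratio of beta to endothelial cells was 2.29 (BcBKO) and 2.15 (flox/flox), against −0.66 (BcBKO) and −0.75 (flox/flox) for Dnajb11.

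The disulfide enzymes differed widely among themselves. Ero1lb (ERO1 beta, the oxidase that recharges disulfide isomerases; ENSMUSG00000057069, mm10 chromosome 13, 12565874 to 12611396) had 505 (BcBKO) and 486 (flox/flox) CPM in beta cells. In the other classes it lay between 48.1 and 76.9 CPM, and the beta level was 2.94 (BcBKO) and 3.10 (flox/flox) log2 units above the endothelial level. If every insulin UMI in endothelial barcodes came from beta-cell RNA, the same carry-over in the droplets would give 42.8% of their Ero1lb in BcBKO and 40.3% in flox/flox. On the CPM scale the disulfide isomerases were far more even. P4hb (PDI) had 244 (BcBKO) and 193 (flox/flox) CPM in beta cells and 210.3 (BcBKO) and 182 (flox/flox) CPM in endothelial cells, and Pdia3 (ERp57) had 349 (BcBKO) and 336 (flox/flox) CPM in beta cells and 358 (BcBKO) and 354 (flox/flox) CPM in endothelial cells. Pdia6 (P5), another isomerase, had 282 (BcBKO) and 264 (flox/flox) CPM in beta cells and 177 (BcBKO) and 169.9 (flox/flox) CPM in endothelial cells. On the hormone-free scale all 3 were higher in beta than in endothelial cells. The log2 ratios there were 1.86 (BcBKO) and 1.83 (flox/flox) for P4hb, 1.61 (BcBKO) and 1.67 (flox/flox) for Pdia3, and 2.31 (BcBKO) and 2.38 (flox/flox) for Pdia6.

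Of the lectin chaperones, Calr (calreticulin) had 356 (BcBKO) and 300.3 (flox/flox) CPM in beta cells and 408 (BcBKO) and 381 (flox/flox) CPM in endothelial cells, and Canx (calnexin) had 209 (BcBKO) and 184 (flox/flox) CPM in beta cells and 195 (BcBKO) and 189.5 (flox/flox) CPM in endothelial cells. The proline isomerase Fkbp11 (ENSMUSG00000003355), which is anchored in the ER membrane of secretory cells, had 152 (BcBKO) and 107 (flox/flox) CPM in beta cells and 19.0 (BcBKO) and 12.1 (flox/flox) CPM in endothelial cells. By the same reckoning of carried-over RNA, 44.1% (BcBKO) and 40.9% (flox/flox) of that endothelial Fkbp11 level could have come from beta cells. Across members the median of this share was 6.42% in BcBKO and 4.92% in flox/flox.

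In the translocon, through which chains enter the ER, Sec61b had 498 (BcBKO) and 467 (flox/flox) CPM in beta cells and 223 (BcBKO) and 205 (flox/flox) CPM in endothelial cells. Ssr4, the delta subunit of the TRAP complex that helps chains such as preproinsulin to enter (ENSMUSG00000002014), had 654 (BcBKO) and 516 (flox/flox) CPM in beta cells, 724 (BcBKO) and 666 (flox/flox) CPM in alpha cells, 652 (BcBKO) and 665 (flox/flox) CPM in delta cells and 251 (BcBKO) and 214 (flox/flox) CPM in endothelial cells. Its high level was therefore common to the 3 endocrine classes. Of the other subunits, Ssr2 (beta) had 160 (BcBKO) and 151 (flox/flox) CPM in beta cells and 135 (BcBKO) and 157 (flox/flox) CPM in endothelial cells, and was highest in delta cells, at 234 (BcBKO) and 240 (flox/flox) CPM. Ssr3, the gamma subunit, had 91.5 (BcBKO) and 82.9 (flox/flox) CPM in beta cells and 107 (BcBKO) and 107 (flox/flox) CPM in endothelial cells. Ssr1, the alpha subunit, had 81.3 (BcBKO) and 74.6 (flox/flox) CPM in beta cells and 87.8 (BcBKO) and 83.6 (flox/flox) CPM in endothelial cells.

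The genes of degradation and export were mixed. Sel1l, the adaptor of the HRD1 ubiquitin ligase, had 50.8 (BcBKO) and 43.2 (flox/flox) CPM in beta cells and 64.8 (BcBKO) and 66.1 (flox/flox) CPM in endothelial cells, while Herpud1 had 196 (BcBKO) and 217 (flox/flox) CPM in beta cells and 143 (BcBKO) and 175 (flox/flox) CPM in endothelial cells. Manf, a small ER protein that mice need to keep their beta cells, had 399 (BcBKO) and 384 (flox/flox) CPM in beta cells and 167 (BcBKO) and 168 (flox/flox) CPM in endothelial cells. Wfs1, the gene of Wolfram syndrome, was highest in delta cells on the CPM scale, at 55.6 (BcBKO) and 61.3 (flox/flox) CPM, with 34.4 (BcBKO) and 33.5 (flox/flox) CPM in beta cells, but on the hormone-free scale it was highest in beta cells, at 118 (BcBKO) and 121 (flox/flox) CPM against 88.3 (BcBKO) and 96.2 (flox/flox) CPM in delta cells. Tmed6, of the p24 family of cargo receptors, was also highest in delta cells on the CPM scale, at 54.7 (BcBKO) and 59.6 (flox/flox) CPM, against 28.5 (BcBKO) and 16.8 (flox/flox) CPM in beta cells. On the hormone-free scale Tmed6 had 97.7 (BcBKO) and 60.5 (flox/flox) CPM in beta cells and 86.8 (BcBKO) and 93.5 (flox/flox) CPM in delta cells.

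In the stress arm, Atf4 and Ppp1r15a were lower in beta than in endothelial cells on the CPM scale. Atf4 had 103 (BcBKO) and 109.97 (flox/flox) CPM in beta cells, against 378 (BcBKO) and 429 (flox/flox) CPM in endothelial cells. Ppp1r15a (GADD34, which restores translation after PERK has slowed it; ENSMUSG00000040435) had 44.8 (BcBKO) and 50.6 (flox/flox) CPM in beta cells, against 137 (BcBKO) and 129.8 (flox/flox) CPM in alpha cells, 585 (BcBKO) and 721 (flox/flox) CPM in endothelial cells and 587 (BcBKO) and 658 (flox/flox) CPM in macrophages. On the hormone-free scale Ppp1r15a was still lower in beta cells, at 154 (BcBKO) and 182 (flox/flox) CPM against 641 (BcBKO) and 775 (flox/flox) in endothelial cells, and Atf4 was nearly level, at 353 (BcBKO) and 396 (flox/flox) against 414 (BcBKO) and 461 (flox/flox). Ddit3 (CHOP) had 39.1 (BcBKO) and 39.9 (flox/flox) CPM in beta cells and was highest in macrophages, at 117 (BcBKO) and 82.0 (flox/flox) CPM. Xbp1 lay between 123 and 217 CPM in all classes, and Ern1, which encodes IRE1 alpha, between 6.80 and 57.6 CPM, highest in delta cells. Trib3 reached at most 6.37 CPM and Chac1 at most 14.7 CPM in any class. Asns, the asparagine synthetase induced by ATF4, was higher in beta cells, with 52.4 (BcBKO) and 45.5 (flox/flox) CPM in beta cells against 22.7 (BcBKO) and 21.3 (flox/flox) CPM in endothelial cells. On the hormone-free scale Ddit3, Chac1, Asns, Ern1 and Xbp1 were all at least 2-fold higher in beta than in endothelial cells in both libraries.

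In all, 11 of the 33 members that reached 20 CPM were at least 2-fold higher in beta than in endothelial cells in both libraries, where 5.50% of all genes were: Hyou1, Sdf2l1, Ero1lb, Fkbp2, Fkbp11, Sec61b, Ssr4, Tmed6, Manf, Wfs1 and Asns. Atf4 and Ppp1r15a were at least 2-fold lower in both, as were 69.9% of all genes. The median log2 ratio of the members was 0.21 in BcBKO and 0.08 in flox/flox, beside −1.56 (BcBKO) and −1.63 (flox/flox) over all genes. On the hormone-free scale the ratio of all genes moved to 0.29 (BcBKO) and 0.31 (flox/flox), 31 of 35 members were at least 2-fold higher in beta cells (26.8% of all genes), and Ppp1r15a was the 1 member that was 2-fold lower (19.5%). Beta cells were the highest class in both libraries for 8 of 34 members on the CPM scale (1.36% of all genes) and for 30 of 35 on the hormone-free scale (25.3%). On the CPM scale delta cells were highest for 14 of 34 (20.7%), macrophages for 4 (13.4%), endothelial cells for 2 (18.7%), mural cells for Ssr3 (23.6%) and alpha cells for Ssr4 (3.44%). The delta and macrophage classes include the barcodes with glucagon RNA described above.

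The beta cells of the library labelled BcBKO were then set against those of flox/flox. A log2 ratio of at least 0.25, or 1.19-fold, was taken as the mark among genes at 20 CPM or more. On the CPM scale 6 of 33 members were past it upward (5.82% of 2938 genes) and 0 downward (1.80%). Ern1, Trib3 and Chac1 did not reach 20 CPM. The median log2 ratio was 0.09 over the members and 0.06 over all genes, and 27 of 33 members were above 0, as were 71.1% of all genes.

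**Figure D3:**
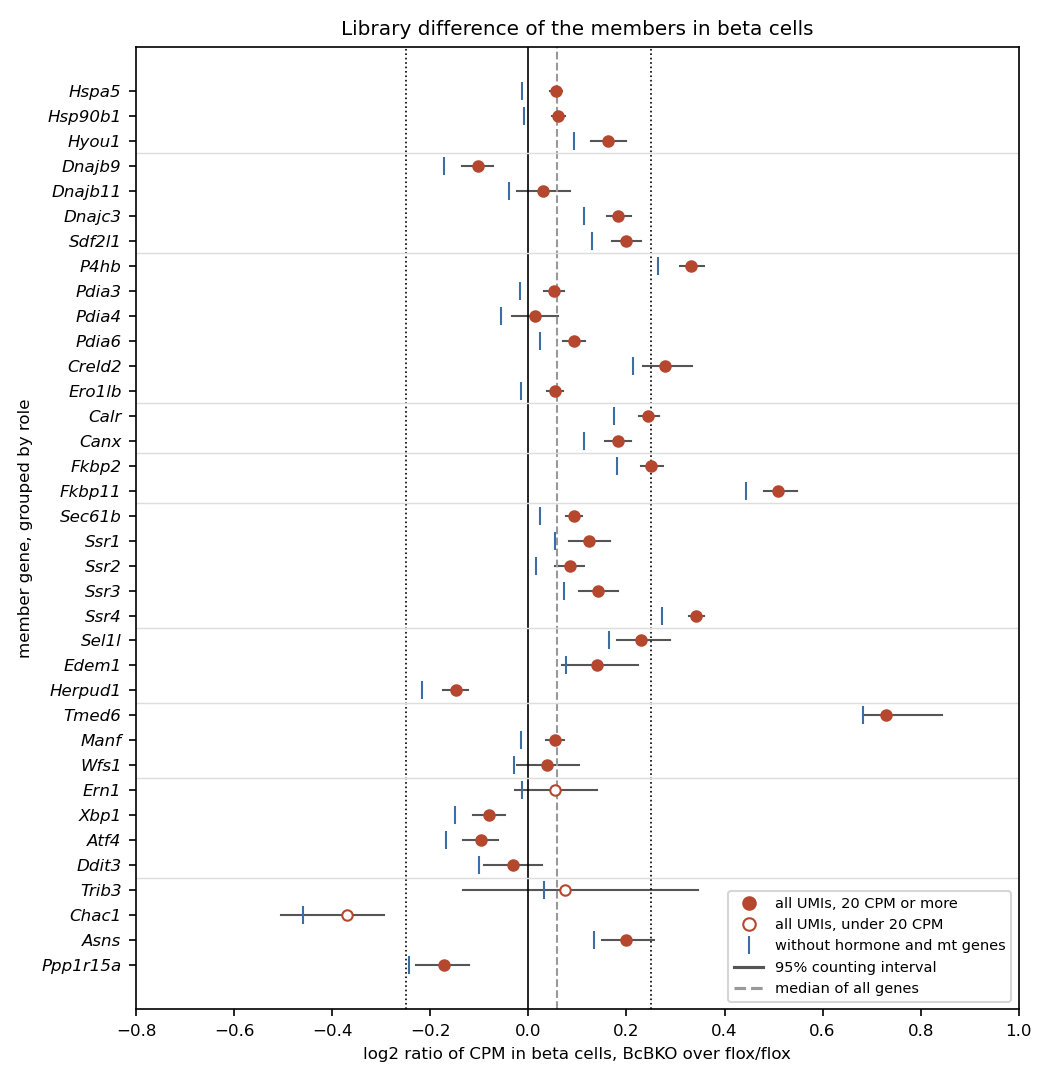
Log2 ratio of each member in beta cells, library labelled BcBKO over flox/flox, with points on the CPM scale, bars for the 95% interval of counting error, and ticks for the hormone-free scale; open points did not reach 20 CPM. Tmed6 (0.73) and Fkbp11 (0.51) lay farthest to the right, and Chac1, Ppp1r15a and Herpud1 lay left of 0.

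The 6 higher members served different steps. Tmed6 (ENSMUSG00000031919, mm10 chromosome 8, 107061476 to 107065644) had 28.5 CPM in BcBKO and 16.8 CPM in flox/flox, a log2 ratio of 0.73 (0.68 to 0.84). Fkbp11 (mm10 chromosome 15, 98724366 to 98728198) had 152 CPM in BcBKO and 107 CPM in flox/flox, a log2 ratio of 0.51 (0.48 to 0.55). These were the only members whose ratio was above 0.5 on the CPM scale.

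Ssr4 (mm10 chromosome X, 73787028 to 73790830) followed with 654 CPM in BcBKO and 516 CPM in flox/flox, a log2 ratio of 0.34 (0.33 to 0.36). P4hb had 244 (BcBKO) and 193 (flox/flox) CPM, a log2 ratio of 0.33 (0.31 to 0.36). Creld2, an ER protein induced by stress, had 61.2 (BcBKO) and 50.3 (flox/flox) CPM, a log2 ratio of 0.28 (0.23 to 0.33). Fkbp2 sat on the mark, with 303 (BcBKO) and 255 (flox/flox) CPM and a log2 ratio of 0.25 (0.23 to 0.27). Calr, at 0.24, and Sel1l, at 0.23, lay just under it.

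The related genes of the same complexes did not move by as much. The 4 other translocon members lay between 0.08 and 0.14, with Sec61b at 498 CPM in BcBKO and 467 CPM in flox/flox. Hspa5 had a log2 ratio of 0.06 (0.04 to 0.07), Hsp90b1 also 0.06, Ero1lb 0.05 and Manf 0.05. Among members at 20 CPM or more, those below 0 were Ppp1r15a at −0.17 (−0.23 to −0.12), Herpud1 at −0.15, Dnajb9 and Atf4 at −0.10, Xbp1 at −0.08 and Ddit3 at −0.03. Of the other genes of signalling and its targets, Asns, Ern1 and Trib3 were not below 0, and Chac1 was. Asns was at 0.20 (0.15 to 0.26), and Ern1 (0.05) and Trib3 (0.07), both under the minimum, had intervals that spanned 0. Chac1, an enzyme that breaks down glutathione and is induced by ATF4 and CHOP, had 11.1 CPM in BcBKO and 14.7 CPM in flox/flox, a log2 ratio of −0.37 (−0.50 to −0.30) at a level under the minimum.

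The position of these values relative to 0 depended on how the totals were formed. On the hormone-free scale Fkbp11 was at 0.44, Tmed6 at 0.68, Ssr4 at 0.27 and P4hb at 0.26, and these 4 members stayed past the mark (3.85% of all genes) while Creld2, at 0.21, and Fkbp2, at 0.18, did not. On that scale Chac1 passed the minimum and was past the mark downward, at −0.46 (3.82% of all genes), and Ppp1r15a was at −0.24. There 19 of 35 members were above 0, beside 45.9% of all genes, with medians of 0.02 for the members and −0.01 for all genes.

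Fkbp11 and Ssr4 are also known from antibody-secreting plasma cells, whose RNA differed between these libraries. The 6 listed plasma-cell genes (Jchain, Igkc, Ighm, Igha, Mzb1 and Tnfrsf17) summed to 130 CPM in beta cells of BcBKO and 24.9 CPM in those of flox/flox, and all 6 were higher in BcBKO. Leaving out the 5 beta barcodes in BcBKO and 1 in flox/flox with at least 10 UMIs of that list brought it to 22.0 (BcBKO) and 24.8 (flox/flox) CPM. The 6 members remained past the mark without them, with Fkbp11 at 0.51, Ssr4 at 0.34, P4hb at 0.33, Creld2 at 0.28, Fkbp2 at 0.25 and Tmed6 at 0.73. Acinar RNA ran the other way, with 18 listed genes summing to 38.3 CPM in BcBKO and 234 CPM in flox/flox; its part in the member values was not tested.

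In the other classes the mark was 0.5 (1.41-fold) at 50 CPM or more, because fewer UMIs stood behind each value. No member passed it, in either direction, among 24 in alpha cells (0.715% of all genes upward and 0.409% downward), 28 in delta cells (0.726% and 0.994%), 25 in endothelial cells (0.870% and 1.94%) and 25 in mural cells (0.943% and 1.94%). In macrophages 2 of 26 were higher (1.65%) and 0 lower (9.21%). Fkbp2 had 169 CPM in BcBKO macrophages and 116 CPM in flox/flox macrophages, a log2 ratio of 0.54 (0.34 to 0.76), and Ddit3 had 117 (BcBKO) and 82.0 (flox/flox) CPM, a log2 ratio of 0.50 (0.26 to 0.76). Neither was past the mark when the classes were limited to barcodes with under 5% insulin. Below that mark, several values were larger than in beta cells. Herpud1 had log2 ratios of −0.31 in alpha, −0.40 in delta and −0.29 in endothelial cells, beside −0.15 in beta cells, and Ppp1r15a had −0.30 in endothelial and −0.33 in mural cells, beside −0.17 in beta cells. The sum of 19 listed dissociation and immediate-early genes was also lower in BcBKO. Its log2 ratios were −0.22 in endothelial, −0.22 in mural, −0.23 in delta, −0.15 in macrophage, −0.09 in beta and −0.01 in alpha cells. The part of those genes in the library differences of the members was not tested. P4hb was higher in BcBKO in all 5 other classes, by 0.16 to 0.30 on the log2 scale. Fkbp11, under 50 CPM in these classes, had log2 ratios of 0.34 in alpha, 0.61 in endothelial, 0.71 in mural cells and 0.85 in macrophages. Tmed6, also under it, had 0.97 (0.52 to 1.70) in alpha cells. Tmed6 was highest in delta cells, and the alpha class held Sst at 12232 (BcBKO) and 10209 (flox/flox) CPM. In alpha barcodes of 1 class only Sst was at 3219 (BcBKO) and 1785 (flox/flox) CPM. The part of delta RNA in the alpha ratio of Tmed6 was not tested. In delta cells, where both reached 50 CPM, the ratios were −0.15 (−0.41 to 0.11) for Fkbp11 and −0.12 (−0.40 to 0.15) for Tmed6, with intervals that spanned 0. Plasma-cell genes summed to 3825 CPM in delta cells of BcBKO and 43.2 CPM in those of flox/flox, and in endothelial cells to 54.8 (BcBKO) and 1775 (flox/flox) CPM.

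Within each library, beta cells were ordered by the share of their UMIs from Ins1 and Ins2 and divided into 5 equal groups, called quintiles, of 611 or 612 cells in BcBKO and 550 in flox/flox. The median insulin share was 68.0% in the richest and 53.7% in the poorest quintile of BcBKO, and 69.4% in the richest and 57.7% in the poorest quintile of flox/flox. Since more insulin leaves fewer UMIs for other genes, members were counted as CPM of non-insulin UMIs. On this scale the members together took 2.13% of UMIs in the richest and 1.77% in the poorest quintile of BcBKO, and 2.15% in the richest and 1.70% in the poorest quintile of flox/flox. In both libraries 13 of 35 members were higher in the richest quintile by at least 0.25 on the log2 scale (5.55% of 6760 genes), and 3 were lower by as much (10.6%). The median log2 ratio of richest over poorest quintile was 0.18 in BcBKO and 0.22 in flox/flox for the members, and −0.01 (BcBKO) and −0.06 (flox/flox) for all genes.

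**Figure D4:**
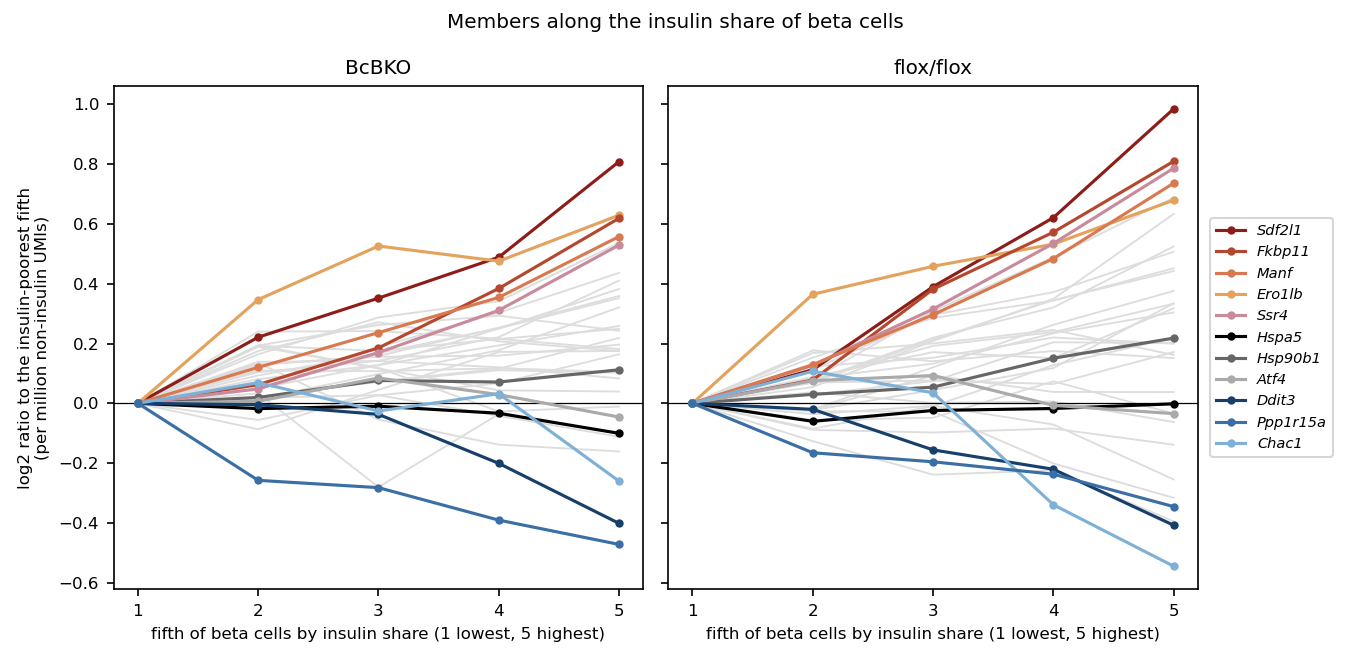
Members across quintiles of beta cells ordered by insulin share, poorest to richest, as log2 ratio to the poorest quintile in CPM of non-insulin UMIs, with the library labelled BcBKO at left and flox/flox at right. Sdf2l1 ended highest among the named lines in both libraries (0.81 in BcBKO, 0.98 in flox/flox), Hspa5 stayed near 0 (−0.10 in BcBKO, −0.00 in flox/flox), and Ddit3 ended at −0.40 (BcBKO) and −0.41 (flox/flox).

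Sdf2l1 had the largest ratio of richest to poorest quintile in both libraries. From the poorest to the richest quintile it had 327, 381, 418, 459 and 574 CPM of non-insulin UMIs in BcBKO, a log2 ratio of 0.81 (0.74 to 0.88), and 288, 311, 378, 443 and 571 in flox/flox, a log2 ratio of 0.98 (0.92 to 1.06). Every step went up. In UMIs per cell it had 7.79 in the richest and 4.82 in the poorest quintile of BcBKO, and 8.32 in the richest and 4.36 in the poorest quintile of flox/flox.

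Fkbp11 had 334, 349, 380, 436 and 514 CPM over the quintiles of BcBKO (0.62) and 226, 238, 295, 336 and 397 over those of flox/flox (0.81). Ero1lb had 1003, 1276, 1445, 1395 and 1552 in BcBKO (0.63) and 1013, 1305, 1393, 1466 and 1624 in flox/flox (0.68), so its largest step was the first. Manf had 876, 952, 1032, 1120 and 1290 in BcBKO (0.56) and 843, 922, 1035, 1179 and 1405 in flox/flox (0.74). Ssr4 had 1480, 1531, 1665, 1837 and 2137 in BcBKO (0.53) and 1110, 1213, 1382, 1609 and 1916 in flox/flox (0.79). Apart from Ero1lb in BcBKO, these 4 members went up at every step in both libraries. In every quintile, Fkbp11 and Ssr4 were higher in BcBKO than in flox/flox.

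The other 8 members past the mark upward in both libraries were Creld2 (0.54 in BcBKO and 0.63 in flox/flox), Pdia6 (0.44 in BcBKO, 0.69 in flox/flox), Dnajb9 (0.41 in BcBKO, 0.51 in flox/flox), Ssr2 (0.38 in BcBKO, 0.52 in flox/flox), Dnajb11 (0.36 in BcBKO, 0.45 in flox/flox), Dnajc3 (0.35 in BcBKO, 0.38 in flox/flox), Fkbp2 (0.32 in BcBKO, 0.44 in flox/flox) and Sec61b (0.26 in BcBKO, 0.33 in flox/flox). By role, these were all 4 J-domain proteins and partners of BiP, 3 of 6 disulfide enzymes, both proline isomerases, 3 of 5 translocon members and Manf. None of the 3 lumenal chaperones, the lectins or the degradation genes passed the mark in both libraries. Hspa5, the partner of the J-domain proteins, had 2105 CPM in the richest and 2256 in the poorest quintile of BcBKO (−0.10), and 2287 in the richest and 2290 in the poorest quintile of flox/flox (−0.00). Hsp90b1 had log2 ratios of 0.11 (BcBKO) and 0.22 (flox/flox).

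Of 35 members, 3 were past the mark downward in both libraries, beside 10.6% of all genes, so such a fall was not particular to the members. These 3 were Ddit3, Ppp1r15a and Chac1, of the stress arm, whose other genes did not all follow. Ddit3 (CHOP) had 112, 111, 109, 97.1 and 84.3 CPM over the quintiles of BcBKO, a log2 ratio of −0.40 (−0.55 to −0.27), and 124, 123, 112, 107 and 93.5 over those of flox/flox, a log2 ratio of −0.41 (−0.55 to −0.27). Ppp1r15a had 142, 119, 117, 108 and 102 in BcBKO (−0.47) and 161, 144, 141, 137 and 127 in flox/flox (−0.35). Chac1 had 24.8 in the richest and 29.9 in the poorest quintile of BcBKO (−0.26), and 30.5 in the richest and 44.9 in the poorest quintile of flox/flox (−0.54). Their upstream factor Atf4 had log2 ratios near 0 (−0.05 in BcBKO, −0.03 in flox/flox), as had Xbp1 (0.10 in BcBKO, 0.04 in flox/flox). Asns had 0.04 in BcBKO and −0.32 in flox/flox, and the difference between the libraries was not tested.

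Other features moved with the insulin share. Endothelial marker genes summed to 51.0 CPM of non-insulin UMIs in the richest and 631 in the poorest quintile of BcBKO, and to 63.0 in the richest and 823 in the poorest quintile of flox/flox. Scrublet, a doublet caller, marked 0% of the richest and 8.82% of the poorest quintile of BcBKO, and 0.182% of the richest and 11.6% of the poorest quintile of flox/flox. Immediate-early genes summed to 11784 in the richest and 15564 in the poorest quintile of BcBKO, and to 13837 in the richest and 18315 in the poorest quintile of flox/flox. The median depth was 38928 UMIs per cell in the richest and 26434.5 in the poorest quintile of BcBKO, and 43581.5 and 31551 in those of flox/flox. Leaving out the 102 (BcBKO) and 86 (flox/flox) beta barcodes with at least 5 endothelial UMIs made the endothelial level even (50.6 in the richest and 46.7 in the poorest quintile of BcBKO, 49.3 and 51.0 in those of flox/flox). Then 12 members were still past the mark upward, all but Sec61b, and Ddit3 and Chac1 downward, while Ppp1r15a was not. With quintiles taken within quartiles of depth, 13 members were past the mark upward (5.39% of all genes) and 2 downward (10.6%). The part of the immediate-early genes, which are known to respond to cell dispersal, was not tested.

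Alpha cells, ordered in the same way by their glucagon share, offered a parallel that was examined after the beta-cell values were seen. Their quintiles held 142 or 143 cells in BcBKO and 83 in flox/flox, with median glucagon shares of 38.5% in the richest and 15.3% in the poorest quintile of BcBKO, and of 41.7% and 17.9% in those of flox/flox. In CPM of non-glucagon UMIs, 2 of the 27 members at 50 CPM or more were higher by at least 0.5 in both libraries (3.12% of all genes) and 0 lower (4.79%). Ssr4 had 1495 CPM in the richest and 781 CPM in the poorest quintile of BcBKO (0.94) and 1359 and 757 CPM in those of flox/flox (0.84). Manf had 525 and 302 CPM in BcBKO (0.80) and 513 and 304 CPM in flox/flox (0.75). Past 0.25 in both libraries were also Pdia6 (0.42 in BcBKO, 0.40 in flox/flox), Sec61b (0.47, 0.37), Ssr2 (0.43, 0.59) and Pdia3 (0.34, 0.30). Ppp1r15a (−0.25, −0.35) was as far below 0. Sdf2l1, the leading member in beta cells, had −0.05 (−0.47 to 0.36) in BcBKO and −0.02 (−0.57 to 0.53) in flox/flox in alpha cells. Ero1lb had 0.09 (−0.27 to 0.46) in BcBKO and −0.17 (−0.68 to 0.32) in flox/flox. These wide intervals spanned 0. Under 50 CPM, Tmed6 was lower in the glucagon-richest quintile, with log2 ratios of −3.15 (BcBKO) and −2.38 (flox/flox), as was Wfs1 (−1.70 in BcBKO, −1.75 in flox/flox). No member under 50 CPM was higher by 0.5 in both libraries. Tmed6 and Wfs1 were highest in delta cells on the CPM scale, and the part of delta RNA in these ratios was not tested.

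At the edge of the beta-cell rule there were few cells: 9 in BcBKO and 8 in flox/flox had 25 to 30% insulin, and 6 (BcBKO) and 4 (flox/flox) had 20 to 25%. The members took 1.73% (BcBKO) and 1.42% (flox/flox) of non-insulin UMIs just inside the limit and 1.41% (BcBKO) and 1.55% (flox/flox) just outside.

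Scaling decides the direction of many of these values. In CPM of all UMIs, 0 of 34 members were past the mark upward (0.135% of all genes) and 18 downward (89.6%), since insulin itself then takes a larger part of the total in the richest quintile. The members with the ER stress response element did not behave as 1 group: 4 of 8 (Dnajc3, Pdia6, Creld2 and Ero1lb) were past the mark upward, with medians of 0.27 in BcBKO and 0.34 in flox/flox, and 7 of 24 without it were, with medians of 0.17 (BcBKO) and 0.17 (flox/flox). Hspa5 and Hsp90b1, printed above with the same element, were not among them. Of the 3 members with the ATF4 element that could be compared, 0 were upward and Chac1 was downward.

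Across single beta cells, the counts of each cell were thinned to 5000 non-insulin UMIs, which left out 27 shallower cells in BcBKO and 14 in flox/flox. The points of these correlations share a library, so they are descriptions without p-values. The median Spearman rho of the 35 members with the insulin share was 0.07 over 3031 cells of BcBKO and 0.06 over 2736 cells of flox/flox, beside −0.00 (BcBKO) and −0.01 (flox/flox) over all genes. In BcBKO the highest values belonged to Ssr4 (0.31 in BcBKO and 0.37 in flox/flox), Manf (0.25 in BcBKO, 0.33 in flox/flox), Ero1lb (0.24 in BcBKO, 0.27 in flox/flox) and Sdf2l1 (0.24 in BcBKO, 0.28 in flox/flox). Pdia6, at 0.18 in BcBKO and 0.29 in flox/flox, followed Ssr4 and Manf in flox/flox. Ddit3 was among the lowest, at −0.07 in BcBKO and −0.06 in flox/flox.

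**Figure D5:**
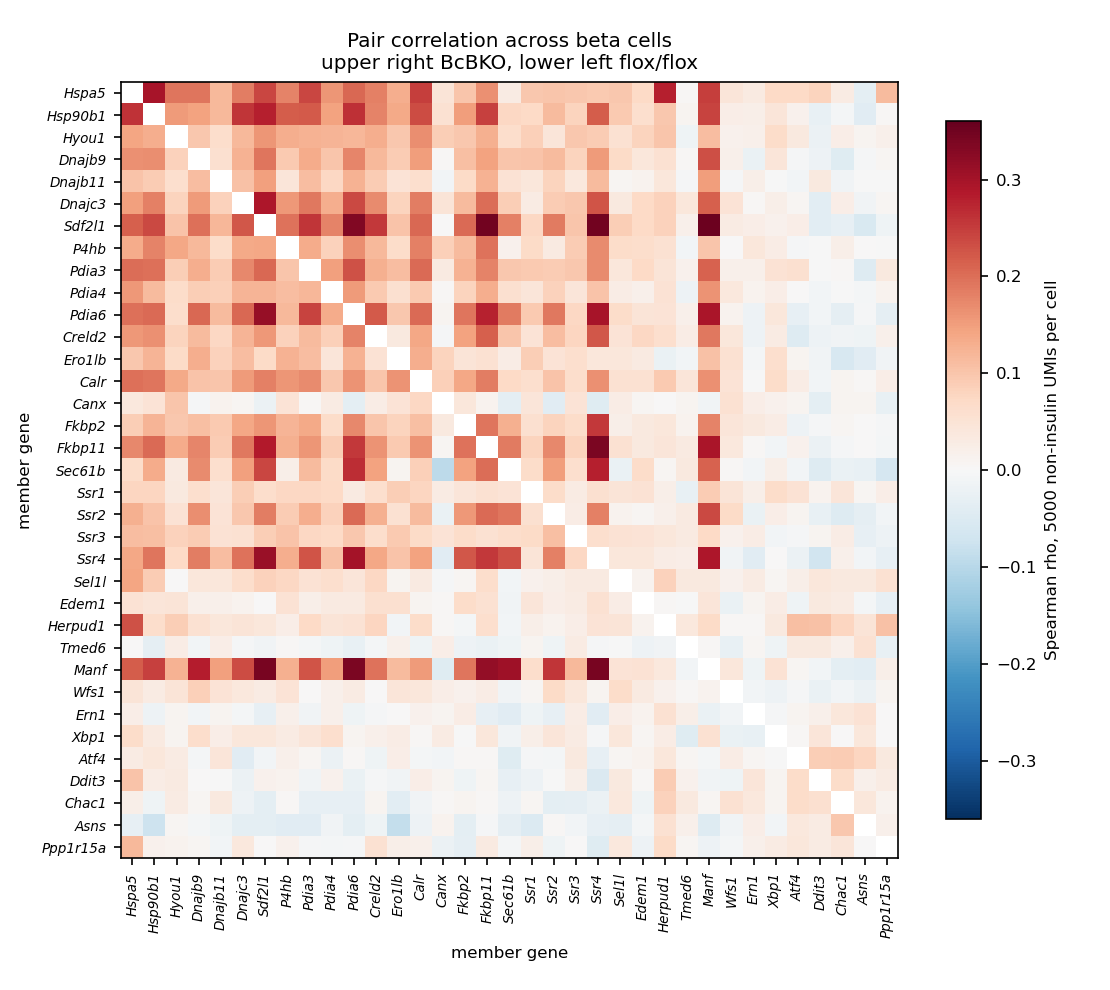
Spearman rho between members across beta cells thinned to 5000 non-insulin UMIs, with the library labelled BcBKO in the upper right and flox/flox in the lower left, ordered by role. Sdf2l1 with Manf had the highest rho in both libraries (0.35 in BcBKO, 0.34 in flox/flox), Manf with Ssr4 had 0.29 in BcBKO and 0.34 in flox/flox, and most others are near the median of 0.04.

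The pairs with the highest values involved Sdf2l1, Manf, Ssr4, Fkbp11 and Pdia6. Over 595 pairs the median rho was 0.04 in BcBKO and 0.04 in flox/flox. Sdf2l1 had its highest values with Manf (0.35 in BcBKO, 0.34 in flox/flox), Ssr4 (0.35 in BcBKO, 0.31 in flox/flox), Fkbp11 (0.35 in BcBKO, 0.28 in flox/flox) and Pdia6 (0.33 in BcBKO, 0.31 in flox/flox), all of which were past the mark in the insulin quintiles. Manf had 0.29 (BcBKO) and 0.34 (flox/flox) with Ssr4, 0.29 (BcBKO) and 0.34 (flox/flox) with Pdia6, 0.29 (BcBKO) and 0.32 (flox/flox) with Fkbp11, and 0.21 (BcBKO) and 0.30 (flox/flox) with Sec61b. Hspa5 correlated with Hsp90b1 (0.30 in BcBKO, 0.26 in flox/flox), with Herpud1 (0.28 in BcBKO, 0.23 in flox/flox) and with Sdf2l1 (0.24 in BcBKO, 0.22 in flox/flox). The stress arm was weakly joined: Atf4 had 0.09 (BcBKO) and 0.07 (flox/flox) with Ddit3, and 0.09 (BcBKO) and 0.07 (flox/flox) with Chac1, and Ddit3 had 0.08 (BcBKO) and 0.10 (flox/flox) with Hspa5. The highest value of Xbp1 was with Hspa5 (0.07 in BcBKO, 0.06 in flox/flox). These genes were sparse: Atf4, Ddit3 and Chac1 averaged 1.08, 0.426 and 0.112 UMIs per 10000 in beta cells of BcBKO and 1.16, 0.456 and 0.150 in those of flox/flox.

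The spread of UMIs between beta cells was described with each cell thinned. With every beta cell thinned to 10000 UMIs, Hspa5 had a median of 8 UMIs per cell in BcBKO and 7 in flox/flox, with 10th and 90th percentiles of 3 and 15 in BcBKO and 3 and 14 in flox/flox, and maxima of 47 (BcBKO) and 46 (flox/flox). Its Fano factor, the variance over the mean, which is 1 for pure counting noise, was 3.20 in BcBKO and 2.80 in flox/flox, the highest among the members. The median Fano factor was 1.26 (BcBKO) and 1.23 (flox/flox) over the members and 1.05 (BcBKO) and 1.04 (flox/flox) over all genes, whose 95th percentile was 1.55 (BcBKO) and 1.42 (flox/flox). Hsp90b1 (1.98 in BcBKO, 1.63 in flox/flox), Ero1lb (1.92 in BcBKO, 1.74 in flox/flox), Ssr4 (1.88 in BcBKO, 1.59 in flox/flox) and Herpud1 (1.75 in BcBKO, 1.67 in flox/flox) followed. For a given relative variation the Fano factor is larger at a higher mean, and Hspa5 had the highest mean, at 8.54 (BcBKO) and 8.16 (flox/flox) UMIs per cell. The Fano factor minus 1, divided by the mean, was 0.257 (BcBKO) and 0.220 (flox/flox) for Hspa5. It was higher for, among others, Ppp1r15a (1.23 in BcBKO, 0.695 in flox/flox), Tmed6 (0.804 in BcBKO, 0.835 in flox/flox), Ddit3 (0.627 in BcBKO, 0.715 in flox/flox), Fkbp11 (0.426 in BcBKO, 0.357 in flox/flox) and Sdf2l1 (0.406 in BcBKO, 0.336 in flox/flox), so relative to the mean Hspa5 did not vary most.

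Around these members, 163 further genes of the pathway were listed by role, of which 161 were in the count tables. In beta cells 10 of 110 at 20 CPM or more were higher in BcBKO than in flox/flox by the same mark (5.82% of all genes) and 0 were lower (1.80%), with a median log2 ratio of 0.08. In the insulin quintiles 33 of 142 were higher (5.55% of all genes) and 6 lower (10.6%) in both libraries, and on the hormone-free scale 92 of 147 were at least 2-fold higher in beta than in endothelial cells (26.8%). The higher ones in the insulin-rich cells came from glycosylation (8 of 19), translocation and signal cleavage (6 of 17), ER to Golgi traffic (9 of 32), degradation (5 of 21), oxidative folding (4 of 22) and ATF4 targets (1 of 18), and 0 of 13 sensors and transcription factors were among them. The 6 lower ones were 3 sensors or factors and 3 ATF4 targets.

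Some extremes of these lists are named here. Sec11c, Tmed3, Nucb2 and Dad1 were past the mark upward in both comparisons, as Ssr4 and Fkbp11 were. The library ratios of the neighbours are given on the CPM scale only. On the hormone-free scale Ssr4, at 0.27, and Fkbp11, at 0.44, stayed past the mark between the libraries, while Creld2 and Fkbp2 did not. Sil1 (0.43), Qsox1 (0.41), Eif4ebp1 (0.38), Phgdh (0.28) and Ganab (0.27) were past the mark between the libraries on the CPM scale, but not in the quintiles of both. Their richest over poorest quintile ratios were −0.13, 0.09, −0.24, 0.11 and −0.05 in BcBKO, and 0.17, 0.39, −0.55, 0.00 and −0.11 in flox/flox. Sec11c, the catalytic subunit of the signal peptidase, had 283 CPM in beta cells of BcBKO and 228 CPM in those of flox/flox, a log2 ratio of 0.31 (0.29 to 0.34), with 0.47 (BcBKO) and 0.63 (flox/flox) for richest over poorest quintile. Tmed3, a p24 cargo receptor, had 287 (BcBKO) and 233 (flox/flox) CPM (0.30; richest over poorest quintile 0.46 in BcBKO, 0.73 in flox/flox). Nucb2, a calcium-binding precursor of nesfatin, had 150 (BcBKO) and 116 (flox/flox) CPM (0.37; richest over poorest quintile 0.63 in BcBKO, 0.76 in flox/flox). Dad1, a subunit of the oligosaccharyl transferase, had 352 (BcBKO) and 287 (flox/flox) CPM (0.29; richest over poorest quintile 0.29 in BcBKO, 0.44 in flox/flox).

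Among the neighbouring stress factors several were lower in insulin-rich cells, as Ddit3 was. Atf3 had 29.0 CPM in BcBKO and 33.1 CPM in flox/flox (−0.19), and it was lower in the insulin-richest quintile, with log2 ratios of −1.79 (BcBKO) and −1.09 (flox/flox), as was Cebpb (−0.58 in BcBKO, −0.42 in flox/flox). Both were high in endothelial cells, at 464 (BcBKO) and 679 (flox/flox) CPM for Atf3 and 204 (BcBKO) and 301 (flox/flox) CPM for Cebpb, and endothelial markers were highest in the insulin-poorest quintile, as given above. The part of endothelial RNA in the quintile values of Atf3 and Cebpb was not tested. Nupr1, a small stress-induced chromatin protein, was higher in beta cells of BcBKO, at 224 CPM against 182 CPM in those of flox/flox (0.30), and lower in the richest quintile (−0.63 in BcBKO, −0.57 in flox/flox), with 23.7 (BcBKO) and 53.4 (flox/flox) CPM in endothelial cells. Sil1, which exchanges the nucleotide of BiP as Hyou1 does, had 23.6 (BcBKO) and 17.2 (flox/flox) CPM (0.43). Sec62, of the translocon for small chains, lay lowest of the neighbours, at 142 (BcBKO) and 165 (flox/flox) CPM (−0.21).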

How the data were processed

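Single-cell RNA of mouse islets was read from 1 count matrix per library. The authors deposited raw UMI counts without normalisation, 1 integer for each gene in each barcode. Per the submitters' processing notes, Cell Ranger 3.1.0, Seurat 4.0.0 and mm10 were used; the file headers name version 6.1.2 of the counting software, and which version made the counts was not settled. The annotation is not given in the sources used here; positions come from GENCODE M21.

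Barcodes with at least 500 genes, 1000 UMIs and at most 20% mitochondrial UMIs were kept (8504 in BcBKO, 7568 in flox/flox; medians 12695.5 UMIs in BcBKO and 12163 UMIs in flox/flox). Endothelial cells had at least 3 UMIs of Plvap and Cdh5, mural cells 5 of Rgs5 and Pdgfrb, macrophages 5 of C1qa and C1qb; alpha cells had at least 10% Gcg and delta cells 5% Sst. A barcode could meet several rules (595 in BcBKO and 629 in flox/flox). Scrublet (scanpy 1.11.5, assumed rate 8%) called 177 (2.08%, BcBKO) and 169 (2.23%, flox/flox) doublets, which were kept in the values given unless stated.

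UMIs were summed per class and library and scaled to 1000000; log2 ratios are of CPM plus 1, which understates differences of low genes. Intervals are exact Poisson or conditional binomial intervals. With 1 library per group no test was made. The members and lists were chosen with earlier results of these data known. Members are named throughout, and the other pathway genes named are among the extremes of their lists. In all, 14 alternatives were planned and 3 were added after seeing the data: insulin quintiles within quartiles of depth, and beta cells with few plasma-cell or few endothelial UMIs. The procedure was tested on simulated data. Scripts ran in Python 3.11.15 (pandas 2.3.3, numpy 2.4.6, scipy 1.17.1, matplotlib 3.10.9), with TMM factors from edgeR 4.0.16 in R 4.3.3. Promoter sequences are from RefSeq; Hyou1, Ssr2 and Manf had no entry, and Ero1lb was matched as Ero1b.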

Additional observations from a re-analysis of the deposited data

How the results depend on the processing

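No paired analysis was possible because each group is 1 library. Under TMM scaling, totals without hormone and mitochondrial genes, and no gene minimum, 1 member was lower in beta cells of BcBKO, against 0 as reported, and the median log2 ratio was 0.024 under the first and second, against 0.09. Members at least 2-fold above endothelial cells numbered 27 with TMM and 31 without hormone and mitochondrial genes, against 11, and members highest in beta cells 28 and 30, against 8. Insulin quintiles scaled to all UMIs gave 0 members higher and 18 lower, against 13 and 3, and TMM gave 1 lower. Scaled to all UMIs, ratios that were above 0 but under 0.25 as reported also changed sign, among them those of Hsp90b1, Hyou1 and P4hb in both libraries. Of the quintile log2 ratios at 0.25 or more as reported, those that changed sign on that scale follow. In BcBKO and in flox/flox they were −0.19 and −0.042 for Dnajb9, −0.24 and −0.094 for Dnajb11, −0.25 and −0.17 for Dnajc3, −0.28 and −0.11 for Fkbp2, −0.35 and −0.22 for Sec61b, and −0.22 and −0.025 for Ssr2. In BcBKO alone these were Pdia6 (−0.17), Creld2 (−0.066), Ssr4 (−0.077) and Manf (−0.048), and in flox/flox alone Pdia3 (−0.22), Calr (−0.25) and Ssr3 (−0.23). Removing insulin from the total, by construction, produces these shifts. Library differences in the other 5 classes numbered 2 as reported, 1 with a pseudocount of 5, 8 with no minimum, 0 under 5% insulin and 4 with barcodes of 1 class only. The insulin level of endothelial cells, 5.49% of that of beta cells, was 2.23% with TMM, 1.75% without hormone and mitochondrial genes, 5.40% with the stricter cell filter, 5.43% without doublets, 5.47% with beta cells at 20000 UMIs, 5.56% with thinned cells, 3.82% under 5% insulin and 7.43% with barcodes of 1 class only. The count of 6 higher members was 4 to 6 in the alternatives. With thinned cells it held 4 of the same members, and Sel1l and Asns in place of Creld2 and Fkbp2. Fkbp2 was not past the mark with TMM, without hormone and mitochondrial genes, with a pseudocount of 5, without doublets, at 35% insulin, with thinned cells or without beta barcodes holding 5 or more endothelial UMIs, and Creld2 was not in the first, second and sixth of these. The lower of the libraries' median correlations with insulin share was 0.05 to 0.07. Depth limits Trib3, Chac1 and Ern1 most, and no interval covers differences between mice, dissections or library preparations.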
